A study of Rattus norvegicus with 9 samples.

Results

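A set of 5 potassium channel genes of the artery wall was followed in 9 poly(A) RNA libraries of rat arteries: Kcnj2, a strong inward rectifier, Kcnj8 and Abcc9, which together form the vascular ATP-sensitive (KATP) channel, and Kcnk3 and Kcnk6, which belong to the two-pore family. The genes were picked by name, by no threshold on their levels, but with earlier results of these data known. All 5 symbols were found, each on 1 line of the 30452 features counted in every library. The arteries came from adult offspring aged 3 to 5 months, whose dams ate a standard diet and drank ordinary water (control) or 20% sucrose water (high-sucrose) in pregnancy. The libraries form 3 groups of 3: control mesenteric artery, with replicates numbered 1, 2 and 3, high-sucrose mesenteric artery, numbered the same way, and control pulmonary artery, numbered 1, 2 and 4. In the plots these groups carry the label codes MAC, MAH and PAC. The sources used here do not name the strain or the number of animals or litters behind a library. Each library holds the RNA of a whole dissected vessel with whatever tissue adhered to it, so it is no preparation of 1 cell type.

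Potassium channels set the resting voltage of the muscle cells that ring an artery. When they open, potassium leaves the cell, the membrane becomes more negative, voltage-gated calcium channels close and the muscle relaxes. Kcnj2 encodes Kir2.1, which is opened further by a rise in external potassium. It works in the endothelium and in the muscle of small arteries. Kcnj8 encodes Kir6.1, the pore of the vascular KATP channel, and Abcc9 encodes SUR2, the ATP-binding regulatory subunit on which vasodilators such as pinacidil act. Activating variants of either gene cause Cantú syndrome in people. Kcnk3 encodes TASK-1, an acid-sensitive background channel of pulmonary artery muscle whose loss-of-function variants are linked to inherited pulmonary arterial hypertension. It is also expressed in heart muscle and in brown fat. Kcnk6 encodes TWIK-2, another two-pore channel of vascular muscle.

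Kcnj8 and Abcc9 are neighbours on rat chromosome 4 and encode the partners of 1 channel, and Kcnj2 is the strong rectifier of the set, so their start regions are printed here beside the question of whether the genes were at parallel levels. RefSeq promoter windows, from 250 bases before to 50 after the start of transcription in build GRCr8, were matched for 3 of the 5 genes (Kcnj2, Kcnj8 and Abcc9). The count files use build rn7, so these positions belong to the RefSeq table alone. Each window is written 5′ to 3′ on the gene's own strand. Capitals mark every match, on either strand, to one of 6 motifs: the CArG box of serum response factor, the MEF2 motif, the CCAAT box, the GC box GGGCGG, the TATA box TATAAA and the E-box CACGTG.
Kcnj2, GRCr8 chr10:96559975-96560274, plus strand: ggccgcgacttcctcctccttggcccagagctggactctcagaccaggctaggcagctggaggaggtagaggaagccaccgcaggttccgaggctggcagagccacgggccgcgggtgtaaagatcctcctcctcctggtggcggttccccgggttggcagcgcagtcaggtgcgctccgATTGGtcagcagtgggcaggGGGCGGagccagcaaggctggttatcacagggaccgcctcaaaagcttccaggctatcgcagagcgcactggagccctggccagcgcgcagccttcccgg
Kcnj8, GRCr8 chr4:177246499-177246798, minus strand: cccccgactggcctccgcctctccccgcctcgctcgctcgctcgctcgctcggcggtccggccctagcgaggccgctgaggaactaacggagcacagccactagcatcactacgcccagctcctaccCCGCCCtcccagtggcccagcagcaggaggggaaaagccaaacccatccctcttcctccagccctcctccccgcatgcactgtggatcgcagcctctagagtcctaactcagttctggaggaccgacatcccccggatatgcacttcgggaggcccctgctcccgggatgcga
Abcc9, GRCr8 chr4:177386299-177386598, minus strand: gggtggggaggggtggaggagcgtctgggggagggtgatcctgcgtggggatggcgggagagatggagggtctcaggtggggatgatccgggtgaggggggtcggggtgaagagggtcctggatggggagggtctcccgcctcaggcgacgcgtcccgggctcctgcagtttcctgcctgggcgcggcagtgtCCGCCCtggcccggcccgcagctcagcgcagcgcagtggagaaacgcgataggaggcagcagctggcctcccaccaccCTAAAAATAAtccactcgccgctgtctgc

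The Kcnj2 window held CCAAT on the opposite strand, with its first printed base 70 bases before the start, and GGGCGG 50 bases before it. Kcnj8 held 1 match, GGGCGG on the opposite strand, 123 bases before the start. Abcc9 held GGGCGG on the opposite strand, 57 bases before the start, and a MEF2 motif that reads on both strands from base 22 after it. No 2 matches to different motifs overlapped. Of 33469 RefSeq windows of the same length, 33.1% held GGGCGG, 37.5% CCAAT, 3.29% a MEF2 motif, 1.64% a CArG box, 14.2% TATAAA and 6.42% CACGTG. The KATP partners thus shared in these windows a match that about 1 in 3 windows holds, and differed in the MEF2 match. Their base composition was alike, at 67.0% G and C in Kcnj8 and in Kcnj2 and 69.0% in Abcc9, against a median of 51.7%.

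Total counts ran from 10388231 to 15420546 per library. Levels are in CPM (counts-per-million), each gene's share of a library's counts, on totals scaled by the trimmed mean of M-values (TMM) over the 9 libraries. Smooth muscle and endothelial markers were present in every library, as the label artery implies, but their amount differed. The summed level of 12 smooth muscle markers ran from 16080 to 56540 CPM in the mesenteric controls, lowest in replicate 2, from 24760 to 36940 CPM in the high-sucrose group, and was 27530, 28230 and 4691 CPM in pulmonary replicates 1, 2 and 4. The last of these was the lowest library for 12 of 12 smooth muscle markers and the highest for 10 of 10 lymphocyte and 9 of 9 measured lung epithelium markers. All 15 of 15 cardiac muscle markers peaked in pulmonary replicate 2. In RNA of whole tissue, fewer cells of a type and less RNA per cell cannot be told apart. These values are therefore set beside the channel genes below.

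The first comparison asked whether prenatal sucrose altered these channels in the mesenteric artery. None of the 5 genes passed the test, and none had groups that did not overlap. The mean of Kcnj2 was 1.52-fold that of control and that of Kcnk3 also 1.52-fold, the mean of Kcnj8 1.23-fold, that of Abcc9 0.771-fold and that of Kcnk6 0.985-fold. By edgeR's quasi-likelihood test each of the 5 had an adjusted p of 1.00. The background was as empty: 0 of 13995 genes passed (0%), 279 (1.99%) had an unadjusted p under 0.05, and groups free of overlap were found for 382 genes higher (2.73%) and 463 lower (3.31%) after prenatal sucrose. By limma-voom 0 of the same 13995 genes passed, and by DESeq2 3 genes, none of them a channel gene of these families. For DESeq2 no share over all genes is given.

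Kcnj2 was at 3.97, 6.02 and 9.62 CPM in mesenteric control replicates 1, 2 and 3. In the high-sucrose replicates 1, 2 and 3 it was at 10.4, 7.59 and 11.8 CPM. Control replicate 3 lay inside the high-sucrose range, and control replicates 1 and 2 lay below it. Its log2 fold change was 0.61 ± 0.38 (SE), with a 95% interval from −0.27 to 1.49, leaving out control replicate 1 gave 0.34, and leaving out control replicate 3 gave 0.99. Kcnj2 rests on 59 to 135 counts per library here, so counting error is part of its spread. The summed level of 11 endothelial markers was 1718, 3710 and 2897 CPM in the controls and 2715, 1857 and 4488 CPM in the high-sucrose group. The library with the most Kcnj2, high-sucrose replicate 3, had the highest sum, of which Vwf gave 1511 CPM. Cdh5, Egfl7, Eng, Vwf, Emcn and Esam were highest in that library, and Pecam1, Tie1, Tek, Kdr and Erg in other mesenteric libraries. Control replicate 2, with a sum of 3710 CPM, had Kcnj2 at 6.02 CPM. The part of endothelial RNA in the level of Kcnj2 was not tested.

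Kcnj8 was at 42.8, 28.3 and 29.8 CPM in control and at 44.0, 57.3 and 23.2 CPM in replicates 1, 2 and 3 of the high-sucrose group. High-sucrose replicate 2 was the highest and replicate 3 the lowest of the 6 mesenteric libraries, so the spread within the group covered the controls. The estimated log2 fold change was 0.31 ± 0.34 (SE), with a 95% interval from −0.48 to 1.11, and 0.014 without high-sucrose replicate 2. Kcnj8 and Abcc9 are also used as pericyte markers. The summed level of 9 other pericyte markers was 2112, 694 and 1662 CPM in control and 1895, 2283 and 1056 CPM in high-sucrose replicates 1, 2 and 3. High-sucrose replicate 2, the highest for Kcnj8, had the highest pericyte sum, of which Mcam gave 985 CPM. Control replicate 2 and high-sucrose replicate 3, the lowest for Kcnj8, had the lowest sums. Rgs5, Pdgfrb, Cspg4 and Vtn were highest in high-sucrose replicate 2, and Notch3, Mcam, Cox4i2, Ndufa4l2 and Anpep in other mesenteric libraries. Anpep was lowest in high-sucrose replicate 2, at 10.1 CPM, and highest in high-sucrose replicate 3, at 59.2 CPM. The part of pericyte RNA in the level of Kcnj8 was not tested.

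Abcc9, the partner of Kcnj8, was at 217, 331 and 196 CPM in control and at 176, 220 and 179 CPM in the high-sucrose replicates. Control replicate 2 stood above the other 5 mesenteric libraries, which lay between 176 and 220 CPM. edgeR gave a log2 fold change of −0.37 ± 0.26 (SE), with a 95% interval from −0.98 to 0.24, and −0.089 without control replicate 2. The partners thus had estimates of opposite sign, each within the spread of its group. The number of Abcc9 counts per Kcnj8 count, a ratio that needs no library scaling, was 5.07, 11.7 and 6.59 in control and 4.00, 3.83 and 7.69 in the high-sucrose replicates. These ratios overlapped between the groups. They are not corrected for transcript length and compare libraries, not the 2 genes.

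**Figure D1:**
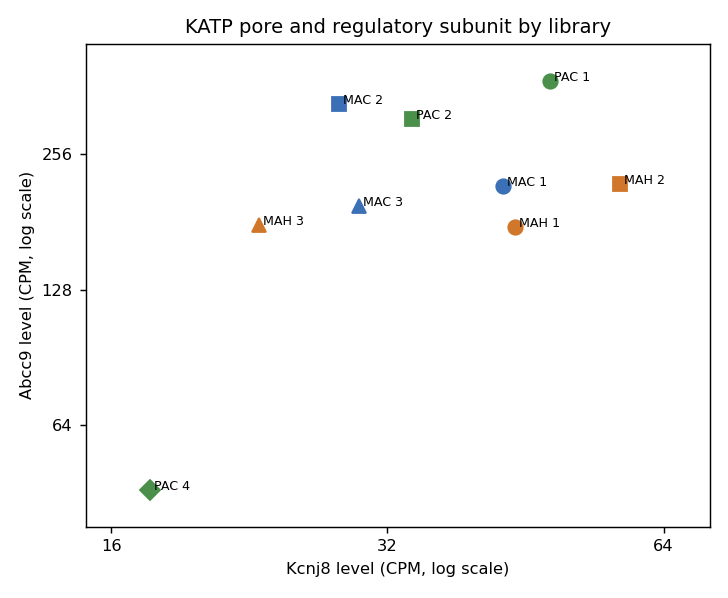
Level of Abcc9 (vertical, CPM, log scale) against Kcnj8 (horizontal, CPM, log scale), 1 point per library, with MAC mesenteric control in blue, MAH mesenteric high-sucrose in orange and PAC pulmonary control in green. Pulmonary replicate 4 is lowest on both axes (17.6 and 45.8 CPM), and pulmonary replicates 1 and 2 and mesenteric control replicate 2 lie highest on the Abcc9 axis.

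Kcnk3 was at 8.48, 9.81 and 3.08 CPM in control and at 15.96, 10.3 and 6.21 CPM in replicates 1, 2 and 3 of the high-sucrose group. High-sucrose replicates 1 and 2 lay above every control and replicate 3 inside the control range. The log2 fold change was 0.60 ± 0.51 (SE), with a 95% interval from −0.59 to 1.79, 0.22 without high-sucrose replicate 1 and 0.24 without control replicate 3. Kcnk6 was at 11.7, 18.8 and 9.34 CPM in control and at 14.3, 9.97 and 14.9 CPM in the high-sucrose replicates. Its high-sucrose libraries lay inside the control range, with a log2 fold change of −0.019 ± 0.32 (SE) and a 95% interval from −0.78 to 0.74. The estimate turned to 0.33 without control replicate 2, the highest of the 6, and to 0.15 without high-sucrose replicate 2. The intervals of both genes reach well to either side of 0, so no statement of equal levels can be made.

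**Figure D2:**
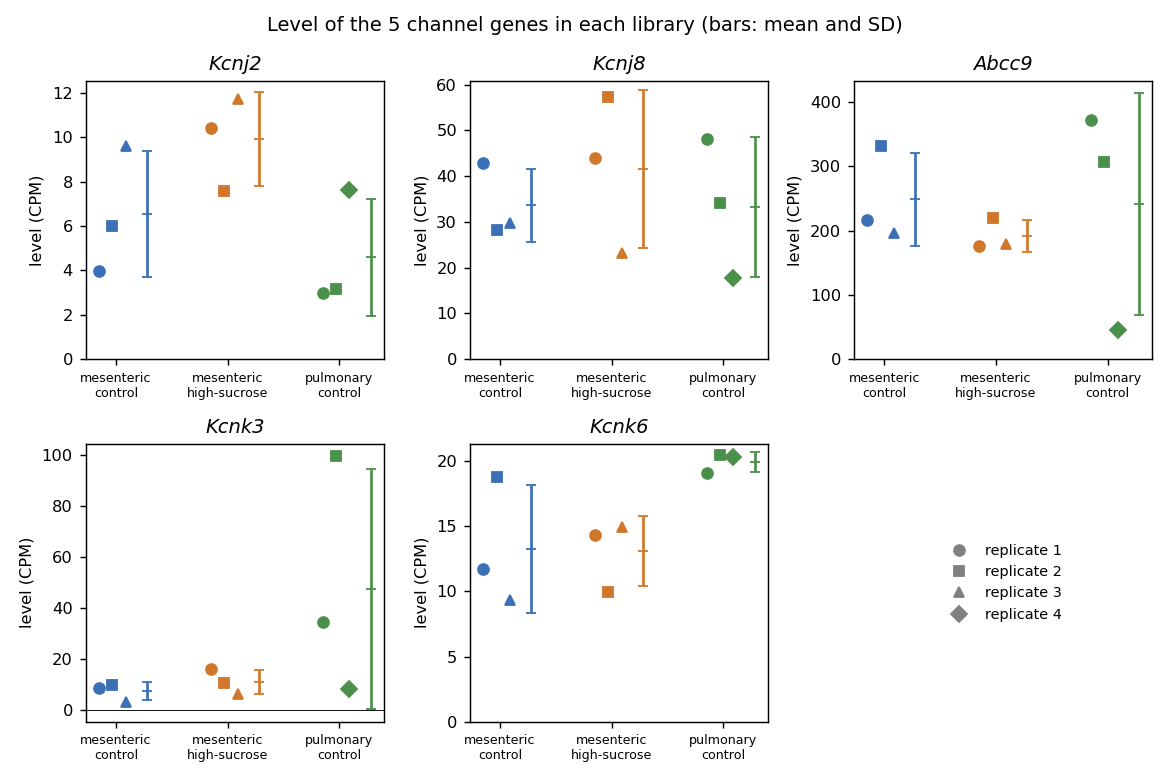
Level (vertical, CPM from 0) of each gene in its own panel, 1 point per library, shaped by replicate number, in mesenteric control, mesenteric high-sucrose and pulmonary control arteries. Bars give the mean and SD of 3 libraries. Kcnk3 reaches 34.4 and 99.6 CPM in pulmonary replicates 1 and 2 and 8.00 CPM in replicate 4, and Kcnk6 lies between 19.1 and 20.4 CPM in all 3.

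The other comparison asked how the channels differ between pulmonary and mesenteric vessels of control rats. Kcnk3 had the largest difference of the 5 genes, with a mean of 47.3 ± 47.2 CPM in pulmonary and 7.13 ± 3.56 CPM in mesenteric artery (SD, n = 3 per group), but not in every library. Kcnk6 was at 19.9 ± 0.77 CPM in pulmonary and 13.3 ± 4.90 CPM in mesenteric artery. The KATP genes Kcnj8 and Abcc9 had nearly the same mean in both vessels, at 0.989-fold and 0.973-fold, and Kcnj2 was at 0.701-fold. None of the 5 passed, and 1 of 5, Kcnk3, had an unadjusted p under 0.05 in edgeR. Over all genes 2 of 14315 passed (0.0140%) and 1221 (8.53%) had an unadjusted p under 0.05. With the scaling of these 6 libraries, 0 of the 5 genes had groups that did not overlap, where 860 genes did so with higher (6.01%) and 1155 with lower pulmonary levels (8.07%). With limma-voom 33 of the same 14315 genes passed and with DESeq2 462 genes, none of the 5 among them. No share over all genes is given for DESeq2. This comparison uses the same mesenteric controls as the first.

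Kcnk3 stood at 34.4, 99.6 and 8.00 CPM in replicates 1, 2 and 4 of pulmonary artery, against 8.48, 9.81 and 3.08 CPM in the mesenteric controls. Pulmonary replicates 1 and 2 stood above every mesenteric library, and replicate 4 lay among the controls. Its log2 fold change was 2.71 ± 0.91 (SE), a 6.52-fold higher level, with a 95% interval from 0.52 to 4.89 before adjustment and an adjusted p of 0.515 by edgeR. It was 3.22 without pulmonary replicate 4, 1.55 without pulmonary replicate 2 and 2.24 with no pulmonary library but replicate 1, with adjusted p of 0.165, 0.616 and 0.624. In the last case the lone library is assumed to vary like the mesenteric ones. Over the alternatives run, the adjusted p ran from 0.059, by DESeq2, to 0.965.

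Markers of tissues that also express Kcnk3 differed among the pulmonary libraries. The 15 cardiac markers summed to 1092, 27940 and 2349 CPM in pulmonary replicates 1, 2 and 4, against 37.5 to 92.3 CPM in the mesenteric controls and 60.9 to 126 CPM in the high-sucrose group. In replicate 1, Actc1, the cardiac alpha-actin, alone gave 1022 CPM, and the other 14 summed to 69.5 CPM, within the mesenteric range. Ryr2 gave 52.5 CPM of that sum and was at 2.41 to 96.3 CPM in the mesenteric libraries. The atrial myosin Myh6 was at 2.65 CPM, the atrial light chain Myl7 at 1.33 CPM, the atrial hormone Nppa at 0.083 CPM and Sln at 0. Myl7, Myl4 (2.40 CPM) and Myoz2 (2.57 CPM) lay above every mesenteric library, which reached 0.28, 1.81 and 0.39 CPM. Apart from these and Actc1, no cardiac marker exceeded the mesenteric libraries there. In replicate 2, Myh6, Myl7, Nppa and Sln were at 6074, 2329, 327 and 375 CPM. Replicate 4 held 464.5, 361.9, 28.3 and 29.4 CPM of them. Replicate 1, with next to none of these heart transcripts, had 34.4 CPM of Kcnk3. Replicate 2, the richest in them, had 99.6 CPM. Replicate 4 was richer in them than replicate 1 but had less Kcnk3, 8.00 CPM.

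Brown fat markers also differed among the pulmonary libraries. The 7 measured markers summed to 136, 355 and 41.7 CPM in pulmonary replicates 1, 2 and 4, against 32.5 to 55.7 CPM in the mesenteric controls. In replicate 2, Cpt1b, the muscle isoform of a fatty acid transport enzyme that heart also expresses, alone gave 200.4 CPM of that sum. Ucp1, the uncoupling protein that defines brown fat, was at 12.6, 4.08 and 0.45 CPM in these pulmonary libraries, at or below 0.093 CPM in the mesenteric controls and at or below 0.19 CPM in the high-sucrose group. Elovl3, another brown fat gene, was at 0 in all 3 pulmonary libraries. The part of heart or brown fat RNA in the level of Kcnk3 was not tested.

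Kcnk6 stood at 19.1, 20.4 and 20.3 CPM in replicates 1, 2 and 4 of pulmonary artery, against 11.7, 18.8 and 9.34 CPM in the mesenteric controls. The 3 pulmonary libraries lay close together although their tissue markers differed widely, and mesenteric replicate 2 nearly reached them. Scaled over the 9 libraries, the pulmonary range began just above mesenteric replicate 2 (19.1 against 18.8 CPM). Scaled over the 6 libraries compared, it began just below it (18.9 against 19.0 CPM). The estimated log2 fold change was 0.58 ± 0.33 (SE), with a 95% interval from −0.21 to 1.38 and an adjusted p of 0.646 by edgeR. It was 0.93 without mesenteric replicate 2 and 0.37 without mesenteric replicate 3.

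The pore gene Kcnj8 stood at 48.1, 34.0 and 17.6 CPM in replicates 1, 2 and 4 of pulmonary artery, against 42.8, 28.3 and 29.8 CPM in the mesenteric controls. Replicate 1 was the highest and replicate 4 the lowest of these 6 libraries. edgeR gave a log2 fold change of −0.017 ± 0.39 (SE), with a 95% interval from −0.94 to 0.91, and the sign turned without pulmonary replicate 4 (0.29) or mesenteric replicate 1 (0.17). Its partner Abcc9 was at 373, 306 and 45.8 CPM in the pulmonary and at 217, 331 and 196 CPM in the mesenteric libraries. Pulmonary replicate 4 stood far below all 8 other libraries, and the log2 fold change of −0.057 ± 0.71 (SE) turned to 0.45 without it and to 0.23 without mesenteric replicate 2. Both genes were lowest in pulmonary replicate 4, which also had the lowest sums of smooth muscle, pericyte (394 against 1260 and 1544 CPM in replicates 1 and 2), endothelial, adipocyte and fibroblast markers. The part of each in these levels was not tested. Counts of Abcc9 per count of Kcnj8 were 7.74, 9.00 and 2.60 in pulmonary replicates 1, 2 and 4, so Abcc9 was lower in replicate 4 by more than Kcnj8 was.

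Kcnj2 stood at 2.98, 3.15 and 7.62 CPM in replicates 1, 2 and 4 of pulmonary artery, against 3.97, 6.02 and 9.62 CPM in the mesenteric controls. Replicates 1 and 2 lay below every mesenteric library and replicate 4 inside the control range. The log2 fold change was −0.50 ± 0.58 (SE), with a 95% interval from −1.87 to 0.88, and −1.09 without pulmonary replicate 4 (adjusted p of 0.459 by edgeR). It was −0.13 without mesenteric replicate 3, −0.27 without pulmonary replicate 1 and −0.29 without pulmonary replicate 2, so its size rests on single libraries. Endothelial markers summed to 1896, 2441 and 874 CPM in pulmonary replicates 1, 2 and 4, so the pulmonary library with the most Kcnj2 had the lowest of these sums. Cdh5, Kdr, Egfl7, Emcn and Esam were lower in replicate 1 than in replicate 4, and the other endothelial markers were lowest of the pulmonary libraries in replicate 4. Replicate 4 was also the one rich in lymphocyte transcripts, which summed to 1667 CPM against 18.7 and 9.10 CPM in replicates 1 and 2. Their part in the level of Kcnj2 was not tested.

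**Figure D3:**
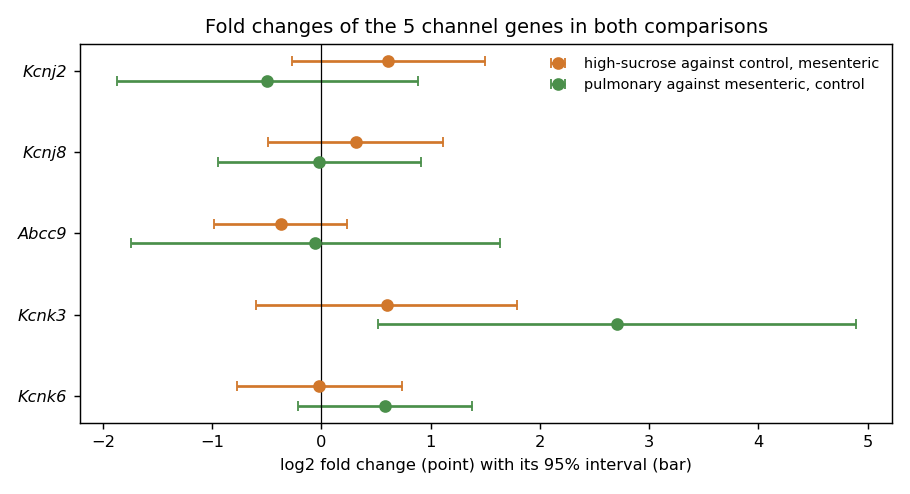
Log2 fold change (horizontal) of each gene, with its 95% interval before adjustment, for high-sucrose against control mesenteric artery (orange) and pulmonary against mesenteric artery of controls (green). The interval of Kcnk3 between the vessels, from 0.52 to 4.89, is the only 1 of the 10 drawn that does not cross 0.

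By group mean, Kcnj2 and Kcnj8 ran from high-sucrose mesenteric over control mesenteric to pulmonary artery, and Abcc9 from control mesenteric over pulmonary to high-sucrose mesenteric artery. Kcnk3 ran from pulmonary over high-sucrose mesenteric to control mesenteric artery, and Kcnk6 from pulmonary over control mesenteric to high-sucrose mesenteric artery. Neighbours in each order overlapped, apart from pulmonary and control mesenteric Kcnk6 under the 9-library scaling. The highest library exceeded the lowest 32.3-fold for Kcnk3 and 8.14-fold for Abcc9. For Kcnj2, Kcnj8 and Kcnk6 the same ratio was 3.94, 3.25 and 2.19. Kcnk6 was the most even of the 5 over these arteries and Kcnk3 the least.

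Since smooth muscle RNA differed between libraries, each gene was also set against it, as its log2 CPM minus the mean log2 CPM of the 12 smooth muscle markers. Relative to smooth muscle, Kcnk3 was at −5.36, −3.94 and −4.94 log2 units in pulmonary replicates 1, 2 and 4 and at −8.35, −6.13 and −9.38 in the mesenteric controls. All 3 pulmonary libraries, replicate 4 included, now lay above all 3 mesenteric controls, and above the high-sucrose libraries at −6.69, −7.67 and −7.62. The difference of the means was 3.21 log2 units, between 2.50 and 4.12 with 1 library left out, and 3.39 with Myh11 alone as the reference. The 2-sided exact permutation test gave p = 0.1, the smallest that 3 against 3 libraries can give, and 1.00 after adjustment over the 10 tests of this kind. Pulmonary replicate 4, with 4691 CPM of smooth muscle markers, has the lowest reference on this scale, and the part of other cell types in these differences was not tested.

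On that scale Abcc9 was at −1.92, −2.32 and −2.43 log2 units in pulmonary replicates 1, 2 and 4, a spread much narrower than in CPM (SD 0.27, n = 3). The mesenteric controls were at −3.68, −1.06 and −3.41, with replicate 2 above all pulmonary libraries. The difference was 0.49 log2 units (exact permutation p = 0.600). It was 0.011 without mesenteric replicate 1, 0.15 without replicate 3 and 1.32 without replicate 2. Kcnj8 was at −4.87, −5.48 and −3.81 in the pulmonary and −6.02, −4.61 and −6.13 in the mesenteric control libraries, a difference of 0.86 (exact permutation p = 0.300). It was 0.41 without pulmonary replicate 4 and 1.35 without mesenteric replicate 2. Kcnk6 was higher by 1.62 (exact permutation p = 0.300) and Kcnj2 by 0.42 (exact permutation p = 0.800), both with pulmonary replicate 4 the highest, and Kcnj2 turned to −0.88 without it and to −0.30 without mesenteric replicate 1. The Kcnk6 difference was 0.75 without pulmonary replicate 4 and 2.50 without mesenteric replicate 2. Between high-sucrose and control mesenteric artery the differences ran from −0.37 for Abcc9 to 0.64 for Kcnj2, with exact permutation p from 0.5 to 1. Control replicate 2, low in smooth muscle RNA, was the highest control for all 5 genes on this scale.

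**Figure D4:**
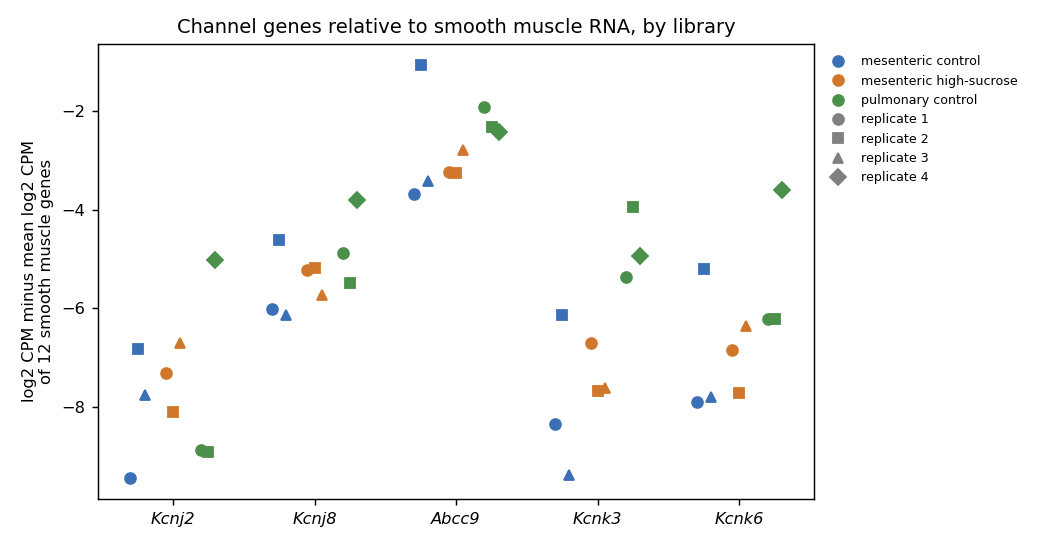
Log2 CPM of each gene minus the mean log2 CPM of 12 smooth muscle markers (vertical, log2 units), 1 point per library, coloured by group and shaped by replicate number. The 3 pulmonary points of Kcnk3, from −5.36 to −3.94, lie above all 6 mesenteric points, the highest of which is −6.13.

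The other genes of these channel families were read from a list of 26 symbols, of which 25 were measured and Kcnj15 was absent. A mean of at least 1 CPM in at least 1 group was reached by 8 of 13 measured inward rectifier and KATP genes and by 6 of 12 two-pore genes. With the 5 genes above, 12 of the 30 measured passed the filter on low counts in mesenteric artery, 0 were called, 8 were higher and 4 lower after prenatal sucrose, and the median log2 fold change was 0.35. Over all genes tested there the median was 0.0024 and 50.3% were higher. Between the vessels 16 passed the filter, 0 were called by edgeR and 1 had an unadjusted p under 0.05. Of the 16, 12 were higher and 4 lower in pulmonary artery. Their median log2 fold change was 0.73, against 0.058 over all genes tested there, of which 54.5% were higher. Kcnj10, Kcnj11, Kcnk2 and Kcnk13 passed the filter only with the pulmonary libraries. All of these had higher pulmonary estimates, with log2 fold changes of 0.26, 3.775, 4.08 and 0.93. The split and the median thus depend in part on which genes the filter let in. Of the 462 genes that DESeq2 called there, 2 were genes of these channel families, Kcnj5 and Kcnk1. Both had too few counts in most libraries for the edgeR filter. No share over all genes is given for DESeq2, so the 2 are not read as many or few.

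Several of these genes had their highest level in pulmonary replicate 2. Kcnj3 and Kcnj5, which form the acetylcholine-activated rectifier of the cardiac atrium, were at 61.2 and 33.5 CPM there. Kcnj3 had 0 counts in all 6 mesenteric libraries and in pulmonary replicate 1, and was at 0.84 CPM in replicate 4. Over the group, pulmonary Kcnj3 was at least 259-fold higher than in the mesenteric controls, taken at the floor of 3 counts over the group, a bound that rests on replicate 2. Kcnj5 had 0.25 and 2.07 CPM in the other pulmonary libraries, replicates 1 and 4, and was at or below 0.13 CPM in the mesenteric libraries. In DESeq2 the adjusted p of Kcnj5 was 0.00228, although 2 of its 3 pulmonary libraries were at or below 2.07 CPM. Kcnk2, the mechanically gated channel TREK-1, was at 29.8 CPM in replicate 2 and 3.81 CPM in replicate 4, was at 0 in replicate 1, and did not exceed 1.03 CPM in mesenteric artery. These are the levels of the library in which all 15 cardiac markers were highest, and the part of heart RNA in them was not tested.

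The other KATP pore, Kcnj11 (Kir6.2, the form of heart muscle and pancreatic beta cells), was also highest in replicate 2. Its pulmonary levels were 0.25, 37.8 and 2.84 CPM (replicates 1, 2 and 4), and its mesenteric levels lay between 0.26 and 2.15 CPM. Of the summed Kcnj8 and Kcnj11 counts, not corrected for length, Kcnj11 gave 52.6% in pulmonary replicate 2 (95% Wilson interval 49.5 to 55.7%), 13.9% in replicate 4 (10.5 to 18.1%) and 0.51% in replicate 1 (0.18 to 1.5%). In the 6 mesenteric libraries its share lay between 0.90% and 4.79%. Kcnj8 thus supplied most KATP pore counts in every library but pulmonary replicate 2. Abcc8, the regulatory subunit SUR1 of the beta cell channel, was at 2.07, 25.2 and 5.23 CPM in the pulmonary libraries and at 11.4, 0.43 and 5.79 CPM in the mesenteric controls, where replicate 2 was low.

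The closest relatives of Kcnj2 followed other patterns. Kcnj12, which encodes Kir2.2, was at 10.97, 1.64 and 11.8 CPM in the mesenteric controls, at 6.86, 6.17 and 6.02 CPM in the high-sucrose group and at 0.75, 18.4 and 1.55 CPM in replicates 1, 2 and 4 of pulmonary artery. Its 3 lowest libraries were mesenteric control replicate 2 and pulmonary replicates 1 and 4. Kcnj14, which encodes Kir2.4, was at 5.63, 10.8 and 7.81 CPM in the pulmonary and 4.17, 3.79 and 1.03 CPM in the mesenteric control libraries. Among the 16 channel genes that passed the filter it was the 1 whose vessels did not overlap. Over all genes tested, 6.01% had higher and 8.07% lower pulmonary levels without overlap. The log2 fold change of Kcnj14 was 1.43 ± 0.60 (SE) at an adjusted p of 0.589 by edgeR, so it did not pass. In the high-sucrose group Kcnj14 was at 6.63, 3.89 and 5.92 CPM. Both Kcnj12 and Kcnj14 were highest in pulmonary replicate 2, the library in which all 15 cardiac markers peaked. The part of heart RNA in their levels was not tested.

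Among two-pore relatives, Kcnk1, the TWIK-1 partner of Kcnk6 in its subfamily, reached 7.52 and 10.7 CPM in replicates 2 and 4 of pulmonary artery, was at 0 in replicate 1 and at or below 0.19 CPM in mesenteric artery. DESeq2 gave it an adjusted p of 0.0146. Kcnk5, the alkaline-activated TASK-2, stood at 0.99, 2.44 and 7.16 CPM in replicates 1, 2 and 4 of pulmonary artery, and Kcnj16 and Kcnk12 were at 4.195 and 3.87 CPM in replicate 4 and at or below 0.38 and 0.28 CPM in every other library. Pulmonary replicate 4 is the library in which lung epithelium markers summed to 841 CPM, against 9.29 to 25.03 CPM in the 6 mesenteric libraries, 10.1 CPM in pulmonary replicate 1 and 78.1 CPM in replicate 2. Lymphocyte markers summed to 1667 CPM in pulmonary replicate 4 and to 7.56 to 18.7 CPM in the other libraries. The part of lung epithelium or lymphocytes in these channel levels was not tested. Kcnk9, the TASK-3 subunit that can pair with Kcnk3, had 0 counts in all 9 libraries. Kcnj9, Kcnk4 and Kcnk7 stayed below 5 CPM everywhere.

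**Figure D5:**
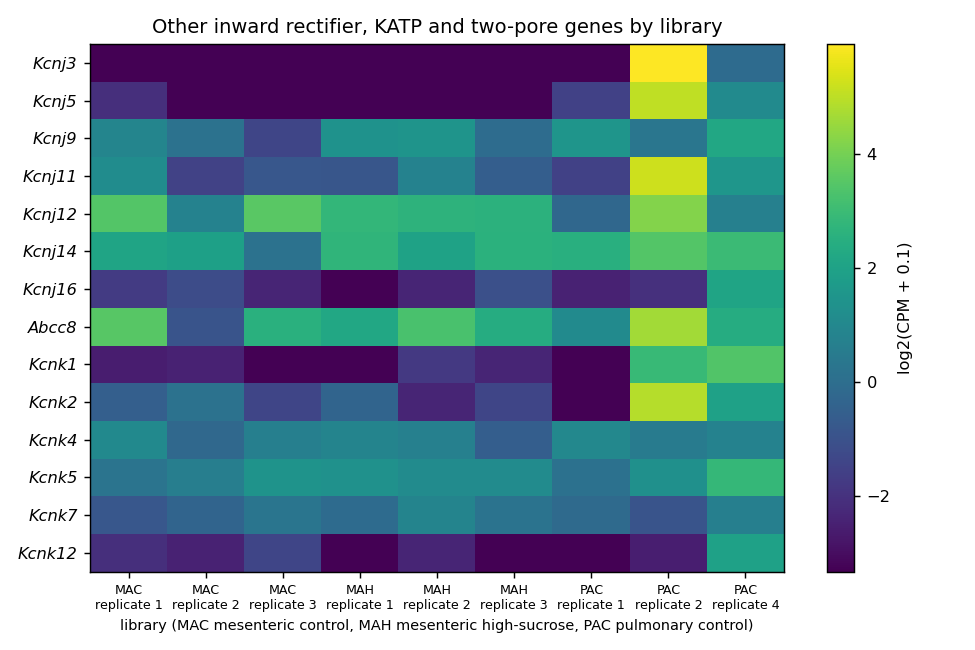
Level of the 14 other channel genes that reached 1 CPM in a group mean (rows) in the 9 libraries (columns), as log2(CPM + 0.1), to be read along rows since the values are not corrected for length. Kcnj3, Kcnj5, Kcnj11, Kcnj12, Kcnj14, Abcc8 and Kcnk2 are brightest in pulmonary replicate 2, and Kcnj9, Kcnj16, Kcnk1, Kcnk5 and Kcnk12 in replicate 4.

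Genes that carry these channels to the membrane, anchor them or supply the lipid PIP2 that holds Kir channels open did not differ past the threshold. All 9 were tested in both comparisons and 0 passed, where 0% of all genes passed between the mesenteric groups and 0.0140% between the vessels. Between high-sucrose and control mesenteric artery the median log2 fold change was 0.027, with 6 higher and 3 lower, where 50.3% of all genes were higher. Between the vessels it was −0.080, with 2 higher and 7 lower, where 54.5% of all genes were higher. S100a10, the p11 protein that binds TASK-1, was at 229, 147 and 142 CPM in pulmonary and 211, 376 and 267 CPM in mesenteric control libraries, which edgeR put at a log2 fold change of −0.73 ± 0.35 (SE; adjusted p of 0.609). Cav1, the caveolin of the membrane pits where vascular KATP channels gather, had pulmonary levels of 1679, 1302 and 191 CPM (replicates 1, 2 and 4) and mesenteric levels between 873 and 1213 CPM. Like Abcc9, it was lowest in pulmonary replicate 4. Pip5k1c, a kinase that makes PIP2, was lower in all 3 high-sucrose than in all 3 control mesenteric libraries, as were 3.31% of all genes tested. Its log2 fold change was only −0.084 ± 0.14 (SE). Between the vessels the log2 fold changes of the other genes of this list, Ywhab, Ywhaz, Copb1, Dlg1, Pip5k1a, Pip5k1b and Pip5k1c, ran from −0.22 to 0.71.

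Genes with the level pattern most like each channel gene over the 9 libraries were ranked by Pearson correlation of log2 CPM among 11460 other named genes with a mean log2 CPM of at least 1. The 9 points share libraries with unequal tissue content, so the values describe these libraries. For Kcnj2 the first 5 were Zc3h12a, Ass1, Pik3c2b, Atf4 and Slc7a6os, with r from 0.93 to 0.97. For Kcnj8 they were Fam71e1, Usp50, Cox7a1, Brme1 and Csrp2, with r from 0.96 to 0.98. In the 6 mesenteric libraries alone, the 5 genes of Kcnj8 had r from 0.92 to 0.965 and those of Kcnj2 r from 0.84 to 0.97. These 6 libraries were among the 9 used for the ranking, so the mesenteric r given here and below are no separate check.

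For Abcc9 the 5 were RGD1311744, Fer, Nudt6, Pcdhb20 and Btbd7, with r of 0.97 to 0.98 over the 9 libraries and 0.70 to 0.89 over the 6 mesenteric ones. For Kcnk3 they were Ppt2, Tmem64, Ikbkb, Gja1 and Actr3b, with r of 0.93 to 0.96, and 0.73 to 0.96 over the mesenteric libraries. For Kcnk6 they were Wdr20, Sh3tc1, Adam12, Serping1 and Mpi, with r of 0.89 to 0.90, and 0.80 to 0.945 over the mesenteric libraries. No gene was among the first 5 of more than 1 channel gene, and the partners Kcnj8 and Abcc9 were not among each other's. Between these partners r was 0.63 over the 9 libraries.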

How the data were processed

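The authors deposited 1 table of raw whole-number counts per gene name for each library. Per the submitters' processing notes the genome build was rn7; aligner, counting program, annotation and strand setting: not given in the sources used here. Per the labels' protocols, poly(A) RNA was enriched and the second strand was marked. Reads shared with a near-identical copy could not be separated; RefSeq lists a pseudogene named after Kcnk6.

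The members and lists were chosen with earlier results of these data known. The main test was edgeR's quasi-likelihood F (edgeR 4.0.16, R 4.3.3) on the deposited counts, with TMM factors, filterByExpr and robust dispersions, on the 6 libraries of each comparison. P-values were adjusted by Benjamini-Hochberg over all genes tested, with a threshold of 0.05. Standard errors are |log2 fold change|/√F. Log2 CPM used a prior of 0.5 counts. DESeq2 1.42.0 and limma 3.58.1 (voom) were alternatives. Named genes are the 5 members, list genes that reach 1 CPM in a group mean, and the 5 most alike genes per member. Nothing says that samples came from separate animals, so the p-values cover only sample-to-sample spread, possibly technical. Chi-square/df between replicates was 45.7 to 332, so no library was counted as a repeat. Intervals of shares and floors cover counting error only.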

Additional observations from a re-analysis of the deposited data

How the results depend on the processing

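With other scalings, filters, tools and 1 library left out, 140 of 155 log2 fold changes of the 5 genes had the direction reported and 15 turned; none passed the threshold in any setting. Kcnk6 between the mesenteric groups turned to 0.20 with limma-voom and 0.031 with the replicate block, and ran from −0.22 to 0.33 with 1 library left out. Between the vessels Kcnj8 turned to 0.0014 with no factors, 0.17 with limma-voom, 0.20 with the replicate block and 0.49 with no pulmonary library but replicate 1 (added after seeing the data), and ran from −0.38 to 0.29 with 1 library left out. Abcc9 turned to 0.39, 0.32 and 0.56 with limma-voom, the replicate block and that single library, and ran from −0.50 to 0.45. The cause was not tested. Genes past the threshold between the mesenteric groups were 0, and 3 by DESeq2. Between the vessels they were 2, and 3 with upper quartile factors or no factors, 462 by DESeq2, 33 by limma-voom, 38 with all 9 libraries in 1 fit, 36 with the replicate block, 0 with pulmonary replicate 1 alone and 0 to 22 with 1 library left out, 22 without pulmonary replicate 4; listed channel genes were 0, and 2 by DESeq2. Same-numbered mesenteric libraries deviated together with r of 0.21, −0.28 and 0.13, so the numbers were not taken to pair them; control replicate 1 correlated best with high-sucrose replicate 2 (0.29). The pulmonary block rests on the shared numbers 1 and 2. Relative to smooth muscle, 60 of 70 values kept their direction. Between the mesenteric groups, with 1 library left out, Kcnj2 ran from −0.077 to 1.23, Kcnj8 from −0.066 to 0.69, Abcc9 from −0.86 to 0.46, Kcnk3 from −0.083 to 1.54 and Kcnk6 from −0.48 to 0.87 (0.10 against Myh11 alone). Between the vessels Kcnj2 ran from −0.88 to 1.07. Depth limits Kcnj2, at 36 to 135 counts per library, and Kcnk3 in mesenteric artery, at 33 to 207.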
